A study of Mus musculus with 18 samples.

Results

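The data described here are the direct contrast between the 2 stimulated states of bone marrow-derived macrophages (BMDMs) that carry 1 functional copy of Prep, the gene of the serine protease prolyl endopeptidase. The contrast was chosen by group and not by any measured value, and took in the 3 Prep+/- M1 libraries and the 3 Prep+/- M2 libraries, which were 6 of the 18 BMDM libraries of the series. Of 16314 genes in the count table, 12021 had enough counts to be tested. Femoral bone marrow of mice on a C57BL6/J background was cultured for 7 days in medium holding 10% serum and M-CSF at 50 ng/ml, and the resulting macrophages were then left unstimulated (M0), given 50 ng/ml LPS for 24 h (M1) or given 20 ng/ml IL-4 together with 20 ng/ml IL-13 for 24 h (M2). LPS is a bacterial cell wall component sensed by Toll-like receptor 4, and M-CSF is the growth factor that carries marrow precursors into the macrophage lineage. The heterozygotes were littermates of the Prep-/- mice and served as the controls of the study, so that a wild type was not among the groups. Each of the 6 groups (Prep+/- and Prep-/-, each as M0, M1 and M2) held 3 libraries, described as biological replicates.

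Macrophages take on different programmes under different signals. LPS acts through NF-kappaB and through interferon regulatory factors, and drives cytokines, chemokines, nitric oxide synthesis and, by way of secreted type I interferon, a broad antiviral response. IL-4 and IL-13 act through a shared receptor chain and the transcription factor STAT6, and drive arginase, lectin receptors, chitinase-like proteins and lipid uptake. M1 and M2 are the names used for these endpoints in culture. M0 is the unstimulated comparison, and its level shows whether M1 and M2 lay on opposite sides of it or on the same side.

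The 6 libraries held between 19549993 and 21739969 counts. Prep itself was at 32.2, 26.0 and 31.3 CPM (counts scaled to a common library size, with libraries adjusted by the trimmed mean of M-values) in the M1 libraries and at 37.8, 38.3 and 40.2 CPM in the M2 libraries. In the Prep-/- libraries it lay between 1.48 and 3.22 CPM, below every Prep+/- library. The log2 difference of M1 minus M2 was -0.38 ± 0.16 (SE, n = 3 and 3, edgeR quasi-likelihood test, adjusted p = 0.055), so Prep was not called different between the 2 states. All 10 macrophage markers were detected in the 6 libraries, and their summed level was 47004 to 48512 CPM in M1 and 11180 to 13247 CPM in M2. 6 of these 10 markers were higher in M1 and 0 were higher in M2 by the edgeR test. Granulocyte markers summed to 79.1 to 145 CPM in M1 and 25.0 to 30.6 CPM in M2, with Retnlg at 0 in every M1 and M2 library, and 5 of 10 were higher in M1. Dendritic cell markers summed to 0.606 to 1.46 CPM in M1 and 45.6 to 53.5 CPM in M2, with Flt3 at 0 in all 6 libraries. Of the 8 dendritic cell markers, 2 were called higher in M2 and 0 higher in M1. Irf4, a member of that list, by itself was at 43.3 to 52.5 CPM in M2. Eosinophil markers summed to 26.2 to 32.3 CPM in M1 and 4.91 to 7.22 CPM in M2, with Epx at 0 in all of these libraries. The members of that list did not move together: of the 6, 1 was called higher in M1 and 1 higher in M2. Markers of B cells, T and NK cells, mast cells and erythroid cells stayed at or below 2.81 CPM as sums in these 6 libraries. Only 3 of 6, 4 of 10, 2 of 7 and 5 of 6 of these markers, in that order, had a row among the counts. Of the T and NK cell markers, 1 was called higher in M1. What these sums contribute to the differences below was not tested, and in bulk RNA fewer cells of a type cannot be told apart from less RNA per cell.

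M2 replicate 3 stood apart from the other M2 libraries for a small set of genes, which were chosen after their values were seen. 11 genes were above 5 CPM in that library and more than 3 times both other M2 libraries, against 2 such genes in M2 replicate 1 and 0 in M2 replicate 2. Dcstamp, needed for macrophage fusion, was at 6.31, 6.84 and 30.7 CPM in M2 replicates 1, 2 and 3, and its partner Ocstamp was at 6.73, 7.97 and 30.9 CPM. The fibroblast collagen gene Col1a1 was at 0.0852, 0 and 5.89 CPM in the M2 libraries, against 7.33 to 7.59 CPM in M1 and 5.13 to 6.38 CPM in M0. Stromal markers as a sum reached 19.1 to 21.8 CPM in M1 and from 0.377 to 14.6 CPM in M2. Of these 8 markers, 1 was called higher in M1 and 0 higher in M2. Gene group counts that moved by more than 1.5 times without this library are given with and without it. The log2 differences of Nos2, Tnf, Ptgs2, Il1rl1 and Hbegf, each highest there among the M2 libraries, were 8.43, 6.24, 6.55, -6.84 and -4.86 without it and stayed called. Without it, smaller moves included growth factor and matrix genes higher in M1 (13 to 16), scavenger, lectin and phagocytic receptors (18 to 16 higher in M1 and 10 to 9 higher in M2), costimulatory and checkpoint molecules higher in M2 (3 to 2) and fatty acid oxidation and PPAR target genes higher in M2 (18 to 20).

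In the fit over all genes, 2001 genes were higher in M1 and 2477 were higher in M2 (adjusted p below 0.05 and a change above 1.5-fold, edgeR), that is, 16.6% and 20.6% of all those tested. The difference exceeded 4-fold for 642 genes higher in M1 and for 683 higher in M2, and 16-fold for 220 and 179. In 1986 of the genes higher in M1 and 2468 of those higher in M2, the 3 values of one state did not overlap the 3 of the other, a separation that 66.5% of all tested genes showed. Of the genes higher in M1, 102 had at most 3 counts in each M2 library, and 185 of the genes higher in M2 had at most 3 counts in each M1 library. The median log2 difference over all tested genes was -0.04. Genes higher in M1 made up 44.5% to 45.3% of the counts of the M1 libraries, 16% to 16.5% in M2 and 20.3% to 20.7% in M0. Genes higher in M2 made up 23.7% to 24.4% of the counts in M2, 8.04% to 8.38% in M1 and 19.1% to 19.5% in M0. More genes were thus called higher in M2, while the genes called higher in M1 held the larger part of the counts of their own state.

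**Figure D1:**
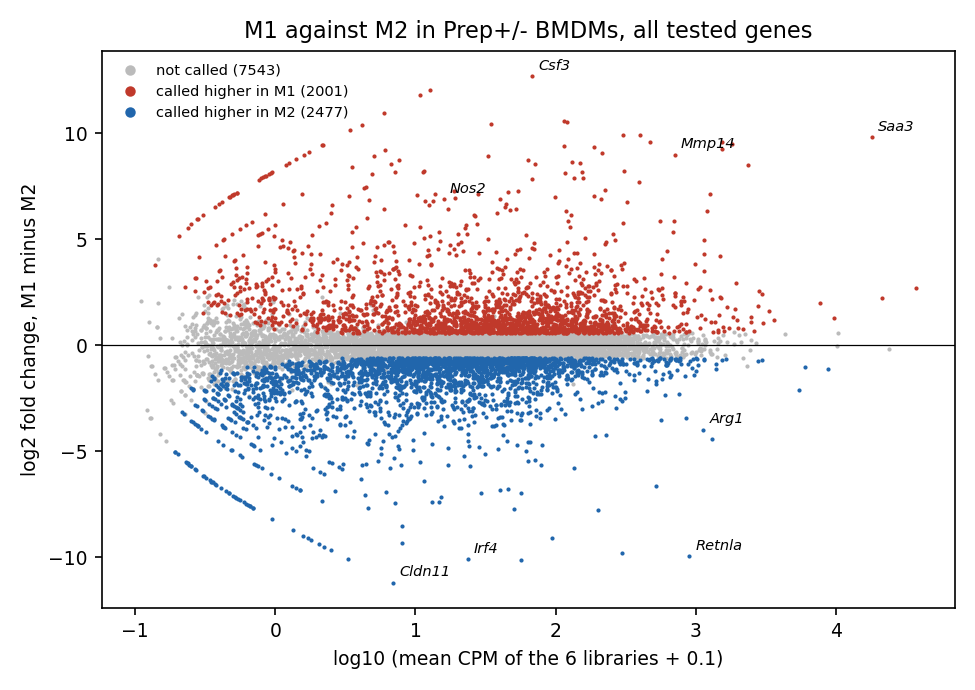
Log2 difference of M1 minus M2 in Prep+/- BMDMs (vertical axis) against the log10 mean CPM of the 6 libraries plus 0.1 (horizontal axis), 1 point for each of the 12021 tested genes. Red points are the 2001 genes called higher in M1 and blue points the 2477 called higher in M2. Genes with a mean above 100 CPM reached from Retnla at -9.95 to Cxcl3 at 10.59, and the curved edges on the left are genes with almost no counts in one state.

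The level in M0, taken as the mean of 3 libraries, lay nearer to M2 than to M1 for most of these genes. Among genes higher in M1, the M0 mean lay between M1 and M2 for 65.8%, below both for 29.1% and above both for 5.10%. Among genes higher in M2, it lay between for 49.5%, above both for 45.1% and below both for 5.45%. Genes called higher in M2 therefore included 1116 whose level was highest in M0, and whose level in M1 was the lowest of the 3 states. M0 was nearer to M2 than to M1 for 80.9% of the genes higher in M1, for 78.0% of those higher in M2 and for 65.6% of the genes not called. Across the 9 Prep+/- libraries, the first principal component held 72.8% of the variance and set the M1 libraries (90.39 to 93.15) apart from M0 (-39.5 to -36.25) and M2 (-56.95 to -51.38). These positions compare group means and carry no test.

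**Figure D2:**
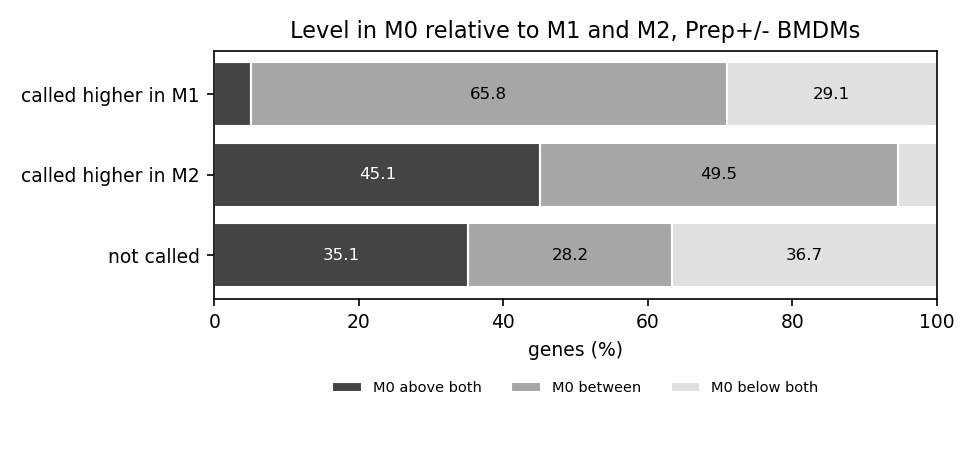
Share of genes (horizontal axis, percent) whose mean level in M0 lay above, between or below the M1 and M2 means, for the 2001 genes higher in M1, the 2477 higher in M2 and the genes not called. Bars are stacked to the whole of each class. M0 lay above both states for 45.1% of the genes higher in M2 and for 5.10% of those higher in M1.

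Among the study's own marker genes, the 4 pro-inflammatory ones were higher in M1 and the 4 alternative ones were higher in M2. Nos2, the inducible nitric oxide synthase, was at 38.1, 22.7 and 33.3 CPM in M1 and at 0.170, 0 and 0.624 CPM in M2, with 0 to 0.118 CPM in M0. Its log2 difference was 6.89 ± 0.73 (SE, edgeR adjusted p = 6.78e-07). The cytokine Il1b was at 610, 891 and 898 CPM in M1 and at 0.682, 1.22 and 0.535 CPM in M2. Its difference of 9.93 ± 0.55 was among the 15 largest. Il6 reached only 5.87, 13.2 and 10.6 CPM in M1 but had at most 1 count in any M2 library, at least 76.6-fold lower than M1 when set to a floor of 3 counts per library. Tnf was at 227, 257 and 266 CPM in M1 and at 3.15, 3.44 and 9.19 CPM in M2, of which the highest was M2 replicate 3. In M0, Tnf was at 13.4 to 26.7 CPM, above all 3 M2 libraries, so the M0 and M2 ranges did not overlap.

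Arg1, which makes ornithine and urea from arginine, was at 2288, 2142 and 1972 CPM in M2 and at 116, 148 and 143 CPM in M1, a log2 difference of -3.98 ± 0.27 (SE, edgeR adjusted p = 4.43e-09). In M0 it was at 1.82 to 2.55 CPM. Both stimulated states thus lay above the M0 range of Arg1, and the M1 to M2 contrast was the smallest log2 difference of the 8 markers. Mrc1, the mannose receptor, was at 2401, 2728 and 2335 CPM in M2, at 124, 91.4 and 132 CPM in M1 and at 455 to 570 CPM in M0, higher than M0 in one state and lower in the other. Chil3, a chitinase-like lectin also called Ym1, was at 994, 1204 and 903 CPM in M2 and at 8.34, 13.1 and 10.2 CPM in M1. It shares 94.3% of 1540 aligned transcript bases with Chil4, so reads of that pair may have been split between them. Retnla, a secreted resistin-like protein, was at 2081, 2015 and 1310 CPM in M2 and at 0.754, 2.30 and 2.42 CPM in M1, a log2 difference of -9.95 ± 0.77. For all 8 markers the M1 and M2 libraries did not overlap. On GRCm39, Nos2 lies at chr11:78811613-78851080 on the plus strand, Arg1 at chr10:24791118-24803817 on the minus strand and Retnla at chr16:48662895-48664824 on the plus strand.

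**Figure D3:**
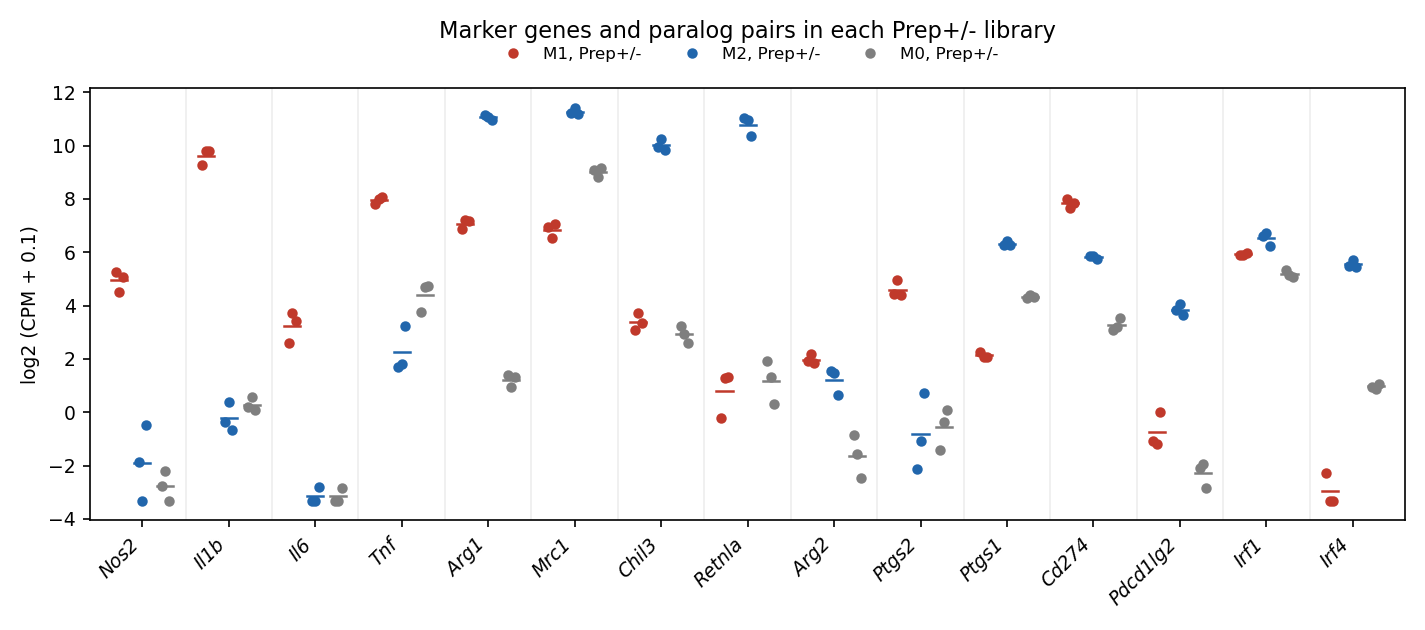
Log2 of CPM plus 0.1 (vertical axis) of 15 genes in each of the 3 M1, 3 M2 and 3 M0 libraries of Prep+/- BMDMs. Each point is a library and each bar the mean of 3. Arg1 and Cd274 lie above M0 in both stimulated states, Mrc1 lies on both sides of M0, and Irf4 is at the bottom of the axis in M1, below its M0 libraries.

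The 15 largest differences toward M1 included cytokine, chemokine and receptor genes. Csf3, the granulocyte colony-stimulating factor, was at 96.8, 156 and 152 CPM in M1 and had at most 1 count in any M2 library, at least 1044-fold higher in M1. Cxcl1, a neutrophil-attracting chemokine, was at 19.6, 30.2 and 25.6 CPM in M1 and at 0 in all 3 M2 libraries, at least 195-fold higher. Il12b, a subunit of IL-12 and IL-23, was at 15.2, 25.1 and 23.3 CPM and again at 0 in every M2 library. These 3 genes were at 0 to 0.631 CPM in M0. Saa3, an acute-phase serum amyloid protein, was the most abundant of the set with 30886, 42874 and 34878 CPM in M1 against 41.3, 28.3 and 51.1 CPM in M2, a log2 difference of 9.81 ± 1.02 (SE, edgeR adjusted p = 5.23e-07). Lcn2, which binds iron-carrying siderophores, and Hp, which binds free haemoglobin, differed by 9.58 ± 0.47 and 9.34 ± 0.37. The formyl peptide receptors Fpr1 and Fpr2, complement factor Cfb and the chemokine Ccl5 differed by 9.42 to 9.92. The remaining genes of the 15 were Il1b, the chemokine Cxcl3, the protease inhibitor Serpinb2, Ly6i, and Draxin, known as an axon guidance protein, which was at 11.1, 13.3 and 10.8 CPM in M1 and at 0 in all M2 libraries.

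Among the 15 largest differences toward M2 were a claudin, an integrin chain, a sodium channel and a lectin. Cldn11, a tight junction claudin, was at 14.06, 13.17 and 13.96 CPM in M2 and at 0 in all 3 M1 libraries, at least 80.5-fold higher in M2. Msx3, a homeobox gene, was at 123.1, 105.4 and 110.6 CPM in M2 and had at most 3 counts in any M1 library, at least 663-fold higher. Irf4, an interferon regulatory factor used in IL-4 responses, was at 45.05, 52.51 and 43.30 CPM in M2, at 0.108, 0 and 0 CPM in M1 and at 1.736 to 2.004 CPM in M0, so its M1 level lay below M0. Atp6v0d2, a subunit of the vacuolar proton pump, was at 363, 430.5 and 415 CPM in M2 and at 1.40, 1.41 and 2.73 CPM in M1. The lectin Mgl2 was at 583, 566 and 631 CPM in M2 and at 0.215, 0.675 and 1.15 CPM in M1. Mgl2 shares 93.9% of 830 aligned bases with Clec10a, which differed in the same direction by -5.62 ± 0.27. Itgb3, the integrin beta 3 chain, the E-cadherin gene Cdh1 and the actin-associated genes Ablim1 and Pdlim1 differed by -7.70 to -7.14. The ribonuclease Rnase2a, the sodium channel Scn3a, the kinase Matk and the chitinase-like Chil4 had differences of -9.31 to -6.98. Il1rl1, the receptor for IL-33, was at 10.3, 8.30 and 23.6 CPM in M2, highest in M2 replicate 3, and at 0, 0.169 and 0.0606 CPM in M1.

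The sequences before 4 of these and related genes are shown as examples. They were picked because they carry letters of binding motifs for the factors that LPS, interferon and IL-4 act through. Motifs were searched on both strands in the 250 bases before and 50 bases after the annotated start of 11693 tested genes (GENCODE M39, GRCm39), and matches of different motifs could overlap. The 150 bases before the start are given 5′ to 3′ on the gene's strand, with the matched letters in capitals. Cxcl1 (chr5:91038944-91039093, plus strand) has 2 matches to the NF-kappaB type letters GGGNNTTTCC. Zbp1, a cytosolic nucleic acid sensor induced by interferon (chr2:173060725-173060874, minus strand), has 4 matches to the interferon-response type letters GAAANNGAAA. The Zbp1 matches form 2 separate pairs and overlap only within each pair. Retnla (chr16:48662745-48662894, plus strand) and Pdcd1lg2, the gene of the checkpoint ligand PD-L2 (chr19:29388169-29388318, plus strand), each have 1 match to the STAT6 type letters TTCNNNNGAA.
Cxcl1: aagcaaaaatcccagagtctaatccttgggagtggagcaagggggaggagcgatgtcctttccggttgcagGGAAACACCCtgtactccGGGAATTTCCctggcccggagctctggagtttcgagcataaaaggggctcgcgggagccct
Zbp1: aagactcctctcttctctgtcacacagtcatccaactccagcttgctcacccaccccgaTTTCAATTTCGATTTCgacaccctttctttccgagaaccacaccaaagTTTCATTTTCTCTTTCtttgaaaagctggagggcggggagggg
Retnla: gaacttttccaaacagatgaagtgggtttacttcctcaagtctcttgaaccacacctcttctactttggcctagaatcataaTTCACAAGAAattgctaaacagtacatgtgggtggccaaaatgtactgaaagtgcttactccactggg
Pdcd1lg2: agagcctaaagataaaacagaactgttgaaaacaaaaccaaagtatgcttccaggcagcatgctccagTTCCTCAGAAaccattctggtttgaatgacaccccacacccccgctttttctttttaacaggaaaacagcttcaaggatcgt

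Over whole classes, the NF-kappaB type letters were in 3.46% of the promoters of genes higher in M1, 1.58% of those higher in M2 and 1.93% of all tested genes. The interferon-response type letters were in 6.88%, 2.83% and 3.68%. The STAT6 type letters were in 5.76%, 6.81% and 6.09%. Of these 3 motifs, the STAT6 type letters had the smallest gap between the classes. The STAT6 type letters also lay before genes higher in M1, among them Lcn2 and Ptges. In the list of type I interferon-stimulated genes, 30 of 50 promoters held the interferon-response type letters (60.0%). The STAT6 type letters were in 3 of 17 promoters of M2 marker genes (17.6%). They were in 6 of 16 promoters of guanylate-binding proteins and immunity-related GTPases (37.5%), a list with no member higher in M2. These shares are descriptions of letters in a fixed window and do not show binding.

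Secreted signals were mostly higher in M1. Of 25 tested interleukins and TNF family ligands, 18 were higher in M1 and 1 was higher in M2, with a median log2 difference of 3.30 against -0.04 over all genes. Without M2 replicate 3 the counts were 19 and 0. Of 11 tested CXC and CX3C chemokines, which attract neutrophils and T cells, 10 were higher in M1 and 0 in M2 (median 7.00). Cx3cl1 was the member not called, at means of 0.491 CPM in M1 and 0.815 CPM in M2. CC chemokines were divided, with 8 of 13 higher in M1 and 2 higher in M2 (15.4%, against 20.6% of all tested genes). Ccl12, a monocyte attractant, was at 230, 310 and 368 CPM in M1, at 28.9, 17.7 and 36.5 CPM in M2 and at 1.96 to 4.45 CPM in M0. The eosinophil attractant Ccl24 was at 6.78, 8.77 and 8.21 CPM in M2 and at 0.0538, 0.225 and 0.182 CPM in M1. Ccl22, which attracts T cells through CCR4, was at 6.521, 6.081 and 35.004 CPM in M2 and at 1.18, 4.16 and 0.909 CPM in M1, a log2 difference of -2.92 ± 1.11 (SE, edgeR adjusted p = 0.0376). Without M2 replicate 3 the difference of Ccl22 was -1.59 and was no longer called (edgeR adjusted p = 0.262), and it was also not called without M1 replicate 1 (-2.63, adjusted p = 0.112) or M1 replicate 3 (-2.58, adjusted p = 0.117). Without M2 replicate 3, 1 CC chemokine was higher in M2.

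Growth factor and matrix genes went both ways, with 13 of 33 higher in M1 and 8 higher in M2. The M2 share was 24.2%, near the 20.6% of all tested genes. Mmp14, a membrane-bound matrix metalloproteinase, was at 1262, 1581 and 1404 CPM in M1 and at 1.66, 2.77 and 3.88 CPM in M2, a log2 difference of 8.998 ± 0.65 (SE, edgeR adjusted p = 7.70e-09). Fn1, the matrix protein fibronectin, was at 61.8, 86.6 and 62.5 CPM in M2 and at 5.65, 5.45 and 4.54 CPM in M1. The growth factor Hbegf was at 5.63, 4.53 and 15.3 CPM in M2 and at 0.108, 0.225 and 0.182 CPM in M1. Its M2 level was highest in replicate 3. Complement genes were higher in M1 for 10 of 17 and higher in M2 for 2. C3, the central complement protein, was at 616, 453 and 471 CPM in M1 and at 13.2, 20.8 and 14.6 CPM in M2, while Itgax, a chain of complement receptor 4 that is also known as CD11c, was at 107, 137 and 176 CPM in M2 and at 2.05, 3.15 and 4.79 CPM in M1.

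Receptors were found on both sides. Of 17 chemokine and chemoattractant receptors, 11 were higher in M1 and 3 in M2 (17.6%, near the 20.6% of all tested genes). Cxcr4, the CXCL12 receptor, was at 45.4, 51.8 and 32.3 CPM in M2 and at 0.807, 1.52 and 1.15 CPM in M1. In M0 it was at 29.9 to 51.5 CPM, a range that overlapped M2 and lay above all M1 libraries. Of 29 Toll-like receptors and adaptors, 16 were higher in M1 and 1 in M2. That 1 gene was Tlr4, the LPS sensor itself, at 68.8, 60.5 and 64.0 CPM in M1, 173, 184 and 172 CPM in M2 and 94.3 to 114 CPM in M0 (log2 difference -1.45 ± 0.12, SE, edgeR adjusted p = 3.05e-08). Its co-receptor Cd14 went the other way, with 1008, 1335 and 1227 CPM in M1 and 48.8, 43.2 and 68.8 CPM in M2. The receptor and its co-receptor were therefore on opposite sides of the contrast.

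Among 30 interleukin, interferon and colony-stimulating factor receptors, 13 were higher in M1 and 6 in M2 (20%, near the 20.6% of all tested genes). Il13ra1, a receptor chain for IL-4 and IL-13, was at 12.1, 11.1 and 11.8 CPM in M1, 6.24 to 7.14 CPM in M0 and 1.28, 1.01 and 1.03 CPM in M2. It was thus lowest in the cells that had been given its ligands. Flt1, a VEGF receptor, was at 75.4, 81.3 and 83.3 CPM in M2 and at 0.807, 0.731 and 0.545 CPM in M1. Scavenger, lectin and phagocytic receptors held 18 of 38 members higher in M1 and 10 higher in M2, with a median of 0.60. The M2 share was 26.3%, against 20.6% of all tested genes. Marco, a scavenger receptor for bacteria, was at 4613, 5110 and 4404 CPM in M1 and at 13.9, 16.7 and 8.29 CPM in M2. The lectin Clec4e, also called Mincle, was at 2606, 2459 and 2457 CPM in M1 and at 16.8, 15.6 and 21.4 CPM in M2. The group therefore held large differences in both directions, with Mrc1, Mgl2 and Clec10a on the M2 side.

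Transcription factors and feedback regulators were found on both sides. Of 22 NF-kappaB subunits and inhibitors, 12 were higher in M1 and 2 in M2. Nfkbiz, a nuclear inhibitor that acts as a co-activator, was at 93.8, 84.4 and 100 CPM in M1 and at 1.41, 1.17 and 0.669 CPM in M2. Rel, a subunit of NF-kappaB, was on the other side at 43.6, 46.8 and 46.5 CPM in M2 and 27.7, 18.3 and 22.4 CPM in M1. Socs3, a feedback inhibitor of IL-6 type signals, was at 434, 396 and 420 CPM in M1 and at 3.32, 3.61 and 3.66 CPM in M2, a log2 difference of 6.88 ± 0.25 (SE, edgeR adjusted p = 4.13e-12). Cish, a feedback inhibitor of STAT5 signals, was at 45.4, 50.0 and 47.2 CPM in M2 and at 0.646, 0.956 and 1.21 CPM in M1. The STAT and SOCS list held 7 of 20 higher in M1 and 5 higher in M2 (25%, against 20.6% of all tested genes). Its median was 0.00.

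Of 17 IL-4 responsive transcription regulators, 10 were higher in M2 and 4 in M1 (23.5%, against 16.6% of all tested genes). Egr2 was at 102, 101 and 135 CPM in M2 and at 1.02, 0.675 and 0.969 CPM in M1. The lipid-sensing nuclear receptor Pparg was at 69.6, 74.7 and 81.4 CPM in M2, at 2.53, 2.92 and 2.24 CPM in M1 and at 14.9 to 20.7 CPM in M0. Among the 8 tested interferon regulatory factors, Irf7, which amplifies interferon production, was at 2296, 2401 and 2500 CPM in M1 and at 49.4, 20.9 and 19.1 CPM in M2, while Irf1 did not pass the test at 59.7, 59.1 and 63.2 CPM in M1 and 98.5, 104 and 75.9 CPM in M2 (log2 difference -0.61 ± 0.27, SE, edgeR adjusted p = 0.0671). With upper quartile scaling Irf1 was called higher in M2 (-0.69, edgeR adjusted p = 0.0398). Cebpb and Cebpa, related factors of the myeloid lineage, were on opposite sides: Cebpb was at 486, 631 and 588 CPM in M1 and 155, 126 and 153 CPM in M2, and Cebpa at 34.3, 34.3 and 35.9 CPM in M1 and 291, 301 and 232 CPM in M2.

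The interferon response was higher in M1 almost throughout. Of 50 type I interferon-stimulated genes, 48 were higher in M1 (96.0%) and 0 in M2, with a median log2 difference of 3.47. The 2 not called were Slfn9 and Ifi207. Slfn1, a regulator of cell quiescence, was at 136, 135 and 155 CPM in M1 and at 0.639, 0.210 and 0.268 CPM in M2. Of 16 guanylate-binding proteins and immunity-related GTPases, which act against microbes inside the cell, 14 were higher in M1 and 0 in M2 (median 3.18). Gbp6 was at 45.2, 30.1 and 37.5 CPM in M1 and at 0.256, 0.252 and 0.401 CPM in M2. Gbp6 shares 99.2% of its aligned transcript bases with Gbp10, so the counts of single members are uncertain. Without M2 replicate 3, 1 member was called higher in M2. M0 lay nearer to M2 than to M1 for all 50 interferon-stimulated genes.

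MHC class I genes were mostly higher in M1, and MHC class II genes went both ways. Of 24 genes of MHC class I and the immunoproteasome, 21 were higher in M1 and 0 in M2 (median 1.66), and M0 lay below both states for 18 of them. H2-T22 was at 597, 723 and 643 CPM in M1, at 82.6, 72.2 and 67.3 CPM in M2 and at 60.3 to 75.5 CPM in M0. For MHC class II, 6 of 17 genes were higher in M2 (35.3%) and 3 in M1 (17.6%), with a median of -0.24. The shares over all tested genes were 20.6% and 16.6%. Ciita, the master regulator of class II genes, was at 3.62, 3.40 and 3.39 CPM in M2 and at 0, 0.169 and 0 CPM in M1, at least 20.3-fold higher in M2. The invariant chain gene Cd74 was at 336, 321 and 299 CPM in M2, at 42.3, 48.6 and 39.8 CPM in M1 and at 21.8 to 31.5 CPM in M0 (log2 difference -2.87 ± 0.51, SE, edgeR adjusted p = 0.000150). Marchf1, a ubiquitin ligase that removes class II from the cell surface, was at 148, 135 and 145 CPM in M1 and at 27.1, 30.8 and 26.0 CPM in M2. H2-Ab1, a class II chain, was not called (1.06 ± 0.54, edgeR adjusted p = 0.112), while its partner chain H2-Aa was higher in M2 (-2.24 ± 0.62, edgeR adjusted p = 0.00601).

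Of 23 costimulatory and checkpoint molecules, 13 were higher in M1 and 3 in M2. The 2 ligands of the checkpoint receptor PD-1 went opposite ways. Cd274 (PD-L1) was at 257, 199 and 230 CPM in M1 and at 57.8, 57.6 and 53.0 CPM in M2, both above the 8.48 to 11.6 CPM of M0, a log2 difference of 2.03 ± 0.31 (SE, edgeR adjusted p = 4.21e-05). Pdcd1lg2 (PD-L2) was at 14.2, 16.6 and 12.3 CPM in M2, at 0.377, 0.337 and 0.909 CPM in M1 and at 0.0401 to 0.158 CPM in M0, a difference of -4.74 ± 0.34 (SE, edgeR adjusted p = 7.67e-09). Cd83, a marker of mature antigen-presenting cells, was at 34.7, 33.6 and 31.2 CPM in M2 and at 0.377, 0.956 and 0.667 CPM in M1, below its M0 level of 12.98 to 18.6 CPM.

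Metabolic genes divided by pathway. Of 36 genes of glycolysis, lactate handling and HIF-1 targets, 25 were higher in M1 and 1 in M2 (median 1.12). Pfkfb3, which sets the level of a glycolytic activator, was at 274, 194 and 231 CPM in M1 and at 12.7, 11.8 and 16.9 CPM in M2, and the exception was the phosphofructokinase Pfkp at 89.9, 69.3 and 74.5 CPM in M1 and 115, 130 and 147 CPM in M2. Pfkp was not called when glmTreat tested against 1.5-fold (-0.75, adjusted p = 0.227). Both hexokinase genes were higher in M1, Hk2 by 2.32 ± 0.28 and Hk1 by 1.04 ± 0.13 on the log2 scale. Of 76 oxidative phosphorylation genes, 1 was higher in M1 and 2 were higher in M2, with a median of -0.01. The respiratory chain list thus had fewer called members than the 16.6% and 20.6% of all genes. For oxidative phosphorylation M0 lay below both states in 66 of 76 genes. In the itaconate and TCA cycle list 6 of 37 were higher in M1 (16.2%) and 8 in M2 (21.6%), about the shares of all tested genes. Acod1, which makes itaconate, was at 3397, 2726 and 3086 CPM in M1 and at 4.09, 2.94 and 7.76 CPM in M2, whereas the other differences of that list lay between -1.70 and 1.27.

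Fatty acid oxidation and PPAR target genes were higher in M2 for 18 of 42 and higher in M1 for 5 (median -0.52). The lipid carrier Fabp4 was at 86.4, 78.9 and 93.5 CPM in M2 and at 16.4, 16.7 and 16.1 CPM in M1, while Fabp5 was not called (0.32 ± 0.17, edgeR adjusted p = 0.137). Acsl1, which activates fatty acids, was on the M1 side at 256, 139 and 152 CPM against 18.8, 26.6 and 25.6 CPM. Cholesterol synthesis held 1 of 24 higher in each direction, and M0 lay above both states for 17 of the 24. The cholesterol exporters Abca1 and Abcg1 were on opposite sides: Abca1 was at 304, 249 and 255 CPM in M1 and 29.0, 34.6 and 42.0 CPM in M2, and Abcg1 was at 95.2, 71.9 and 73.7 CPM in M1 and 364, 399 and 354 CPM in M2. Eicosanoid genes split in the same way. Ptgs2, the inducible cyclooxygenase, was at 21.4, 30.7 and 21.2 CPM in M1 and at 0.128, 0.377 and 1.56 CPM in M2, and Ptgs1, the constitutive form, was at 4.74, 4.05 and 4.06 CPM in M1 and 76.2, 84.9 and 78.0 CPM in M2 (log2 difference -4.21 ± 0.18, SE, edgeR adjusted p = 2.11e-11). Ptges, which converts their product to prostaglandin E2, was higher in M1 by 8.21 ± 0.26, and the prostaglandin-degrading Hpgd was higher in M2 by a log2 difference of -5.47 ± 0.77, with its highest level in M0 (24.4 to 44.2 CPM).

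Among 22 genes of arginine, polyamine and nitric oxide metabolism, 4 were higher in M1 (18.2%) and 7 in M2 (31.8%). The shares over all tested genes were 16.6% and 20.6%, and the list median was -0.08. Arg2, the mitochondrial arginase, was not called at 3.71, 4.38 and 3.45 CPM in M1 and 2.81, 2.68 and 1.47 CPM in M2 (0.73 ± 0.41, edgeR adjusted p = 0.153), unlike Arg1. Fitted to the 6 compared libraries alone, Arg2 was called higher in M1 (0.77, edgeR adjusted p = 0.0233). The arginine transporter Slc7a2 was at 147, 162 and 148 CPM in M1, at 117, 130 and 119 CPM in M2 and at 3.65 to 3.97 CPM in M0, and its M1 to M2 difference was not called (0.32 ± 0.14, edgeR adjusted p = 0.0695). Both stimulated states thus lay above M0 for Slc7a2. Gch1, which makes the nitric oxide synthase cofactor, was higher in M1 by 2.75 ± 0.14.

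Iron handling had 10 of 18 genes higher in M1 and 5 higher in M2 (27.8%, against 20.6% of all tested genes). Tfrc, the transferrin receptor, was at 1051, 1148 and 928 CPM in M2, at 84.5, 95.6 and 88.3 CPM in M1 and at 147 to 154 CPM in M0, and Slc40a1, the iron exporter ferroportin, was at 111, 130 and 126 CPM in M2, at 8.77, 9.56 and 9.88 CPM in M1 and at 234 to 331 CPM in M0. Of 8 NADPH oxidase genes, 7 were higher in M1 and 0 in M2, and Rac1 was the member not called. Cybb, the catalytic subunit, was at 2334, 1987 and 2006 CPM in M1 and at 185, 203 and 168 CPM in M2. In the antioxidant list 6 of 22 were higher in M1 (27.3%) and 5 in M2 (22.7%), against 16.6% and 20.6% of all tested genes. Among those higher in M1 was the mitochondrial superoxide dismutase Sod2, by 4.97 ± 0.19. Of 21 inflammasome and pyroptosis genes, 13 were higher in M1 and 2 in M2, and lysosomal hydrolases held 6 of 46 higher in M1 (13%) and 10 higher in M2 (21.7%), shares near those of all tested genes. Ectoenzymes and purinergic receptors included Cd38, an NAD-consuming enzyme, at 414, 429 and 448 CPM in M1 and 0.597, 0.755 and 1.07 CPM in M2, and the ADP receptor P2ry1 at 54.3, 55.9 and 53.2 CPM in M2 and 2.21, 1.97 and 1.64 CPM in M1.

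Cell division genes were higher in M2. Of 41 mitosis genes, 40 were higher in M2 (97.6%) and 1 was higher in M1, with a median log2 difference of -2.81. Ccnb2, a mitotic cyclin, was at 106, 97.8 and 101 CPM in M2, at 3.88, 3.82 and 3.94 CPM in M1 and at 133 to 148 CPM in M0 (log2 difference -4.71 ± 0.36, SE, edgeR adjusted p = 1.66e-08). The centromere histone Cenpa was at 133, 119 and 123 CPM in M2 and at 5.22, 5.56 and 5.21 CPM in M1. M0 lay above both stimulated states for 40 of the 41 genes, with the M1 mean lower than the M2 mean for those 40. The exception was Pttg1, the securin gene, at 48.5, 66.5 and 65.3 CPM in M1 and 36.5, 25.5 and 25.1 CPM in M2. Of 46 DNA replication genes, 34 were higher in M2 and 0 in M1 (median -0.92), with M0 above both for 41. Among G1 regulators the D-type cyclins Ccnd2 (2.27 ± 0.46) and Ccnd3 (1.67 ± 0.16) were instead higher in M1, and the inhibitor Cdkn2c was higher in M2 with a difference of -2.70 ± 0.26.

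Of 77 cytosolic ribosomal protein genes, 27 were higher in M2 and 0 in M1, with a median of -0.51. Rpl10a was at 681, 607 and 638 CPM in M2 and at 273, 374 and 323 CPM in M1. These genes have many near-identical copies in the genome, so counts of single members are uncertain. Ribosome biogenesis genes held 2 of 36 higher in M1 and 4 higher in M2, and without M2 replicate 3 those counts were 4 and 2. The unfolded protein response and ATF4 list held 9 of 30 higher in M1 and 6 in M2 (20%, near 20.6% of all tested genes). Hyou1, a chaperone of the endoplasmic reticulum, was at 404, 369 and 370 CPM in M1 and at 134, 150 and 160 CPM in M2, and Asns, the asparagine synthetase, was at 32.8, 27.7 and 22.7 CPM in M1 and at 112, 93.9 and 131 CPM in M2. Of the 12 tested prolyl peptidases, the enzyme family to which Prep belongs, 3 were higher in M2 (25.0%, near the 20.6% of all tested genes) and 0 in M1. Dpp7 among them was at 153, 169 and 149 CPM in M2 and 66.7, 69.4 and 63.0 CPM in M1.

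**Figure D4:**
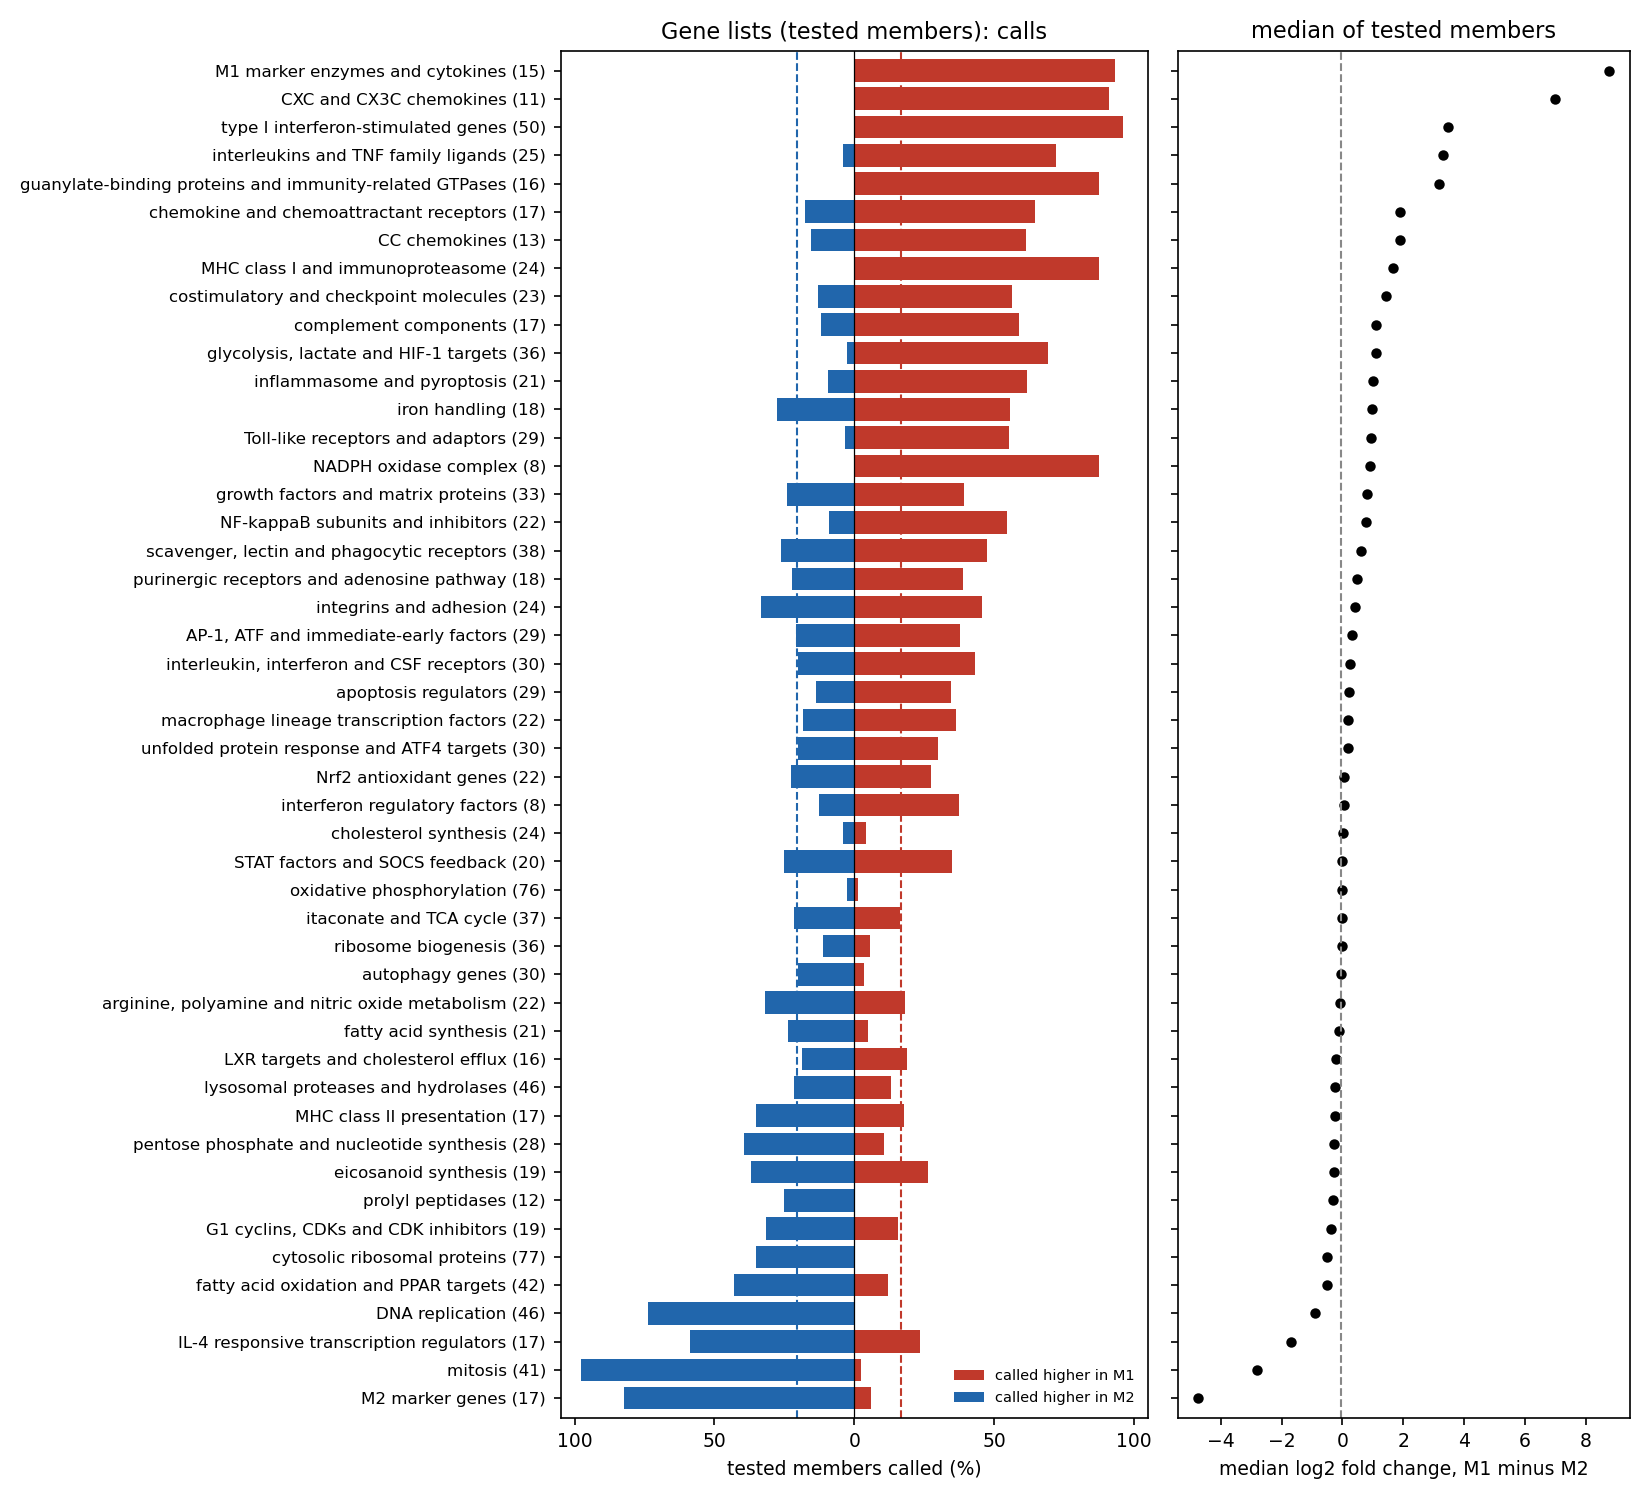
Left, the percent of tested members of each gene list called higher in M1 (red, to the right) or in M2 (blue, to the left), with dashed lines at the 16.6% and 20.6% of all tested genes. Right, the median log2 difference of M1 minus M2 of the tested members, with a dashed line at -0.04, the median of all genes. The number of tested members is in parentheses. Interferon-stimulated genes (48 of 50 higher in M1) and mitosis genes (40 of 41 higher in M2) stand at opposite ends in their calls, and oxidative phosphorylation lies near 0 on both panels.

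Whether the M1 to M2 difference in Prep+/- cells departs from that in Prep-/- cells was asked with an interaction term over 12 libraries that share no sample between the genotypes. The difference itself was called for 1435 genes (11.9%, edgeR), of which 551 were more toward M1 in Prep+/- and 884 more toward M2. Among the 4478 genes called in Prep+/- cells, 3012 were called in the same direction in Prep-/- cells and 58 in the other direction. Of all 12021 tested genes, 2313 were called higher in M1 and 2315 higher in M2 in Prep-/- cells. The study's 8 markers kept their direction in both genotypes. Ednrb, an endothelin receptor, was at 44.7, 46.0 and 48.0 CPM in Prep+/- M2 and 1.83, 1.41 and 1.88 CPM in Prep+/- M1, but at 24.5, 35.1 and 26.5 CPM in Prep-/- M2 and 74.7, 35.1 and 35.2 CPM in Prep-/- M1. The contrast differed by -5.51 ± 0.39 (SE, edgeR adjusted p = 1.62e-06). Phgdh, the first enzyme of serine synthesis, was at 125, 107 and 139 CPM in Prep+/- M2 and 2.37, 3.54 and 2.54 CPM in Prep+/- M1, against 39.3, 56.4 and 62.0 CPM and 22.97, 36.4 and 28.3 CPM in Prep-/- cells. Phgdh has many near-identical copies, so its counts may have been split. In the unfolded protein response and ATF4 list, to which Phgdh belongs, 15 of 30 genes had an interaction call.

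Dmpk, a protein kinase, was not called between the Prep+/- states, at 66.96, 67.34 and 64.05 CPM in M1 and 53.4, 64.1 and 50.6 CPM in M2 (0.24 ± 0.20, edgeR adjusted p = 0.339), while in Prep-/- cells it was at 9.72, 14.6 and 15.3 CPM in M1 and 0.453, 1.05 and 0.479 CPM in M2. Acpp, an acid phosphatase, was at 33.6, 43.1 and 44.8 CPM in Prep+/- M1 and 1.279, 1.636 and 1.204 CPM in Prep+/- M2, and at 2.03, 4.29 and 3.05 CPM and 2.06, 2.95 and 1.44 CPM in the Prep-/- states. Thbs1, the matrix protein thrombospondin 1, was at 815, 749 and 772 CPM in Prep+/- M1 and 3.28, 4.82 and 3.21 CPM in Prep+/- M2, and at 236, 200 and 302 CPM and 17.7, 16.5 and 14.7 CPM in the Prep-/- states. For Acpp and Dmpk the gap between the states was thus present in 1 genotype and small in the other, whereas Thbs1 kept its direction in both. In M0, Dmpk was at 120.2 to 170.5 CPM in Prep+/- and 1.28 to 2.446 CPM in Prep-/- cells. Dmpk was thus lower in Prep-/- than in Prep+/- cells in M0, M1 and M2. Thbs1 in M0 was at 5.248 to 11.74 CPM in Prep+/- and 140 to 346.6 CPM in Prep-/- cells. Mmp9, a secreted gelatinase, was at 42.1, 53.2 and 36.7 CPM in Prep+/- M1 and 0.128, 0.419 and 2.27 CPM in Prep+/- M2, with Prep-/- M2 at 0.302, 0.700 and 21.95 CPM. Without Prep-/- M2 replicate 3 the difference of the contrast for Mmp9 fell from 5.46 to 1.56 and was no longer called (edgeR adjusted p = 0.36), and that of Phlda1 fell from 3.98 to 1.78 (edgeR adjusted p = 0.266).

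**Figure D5:**
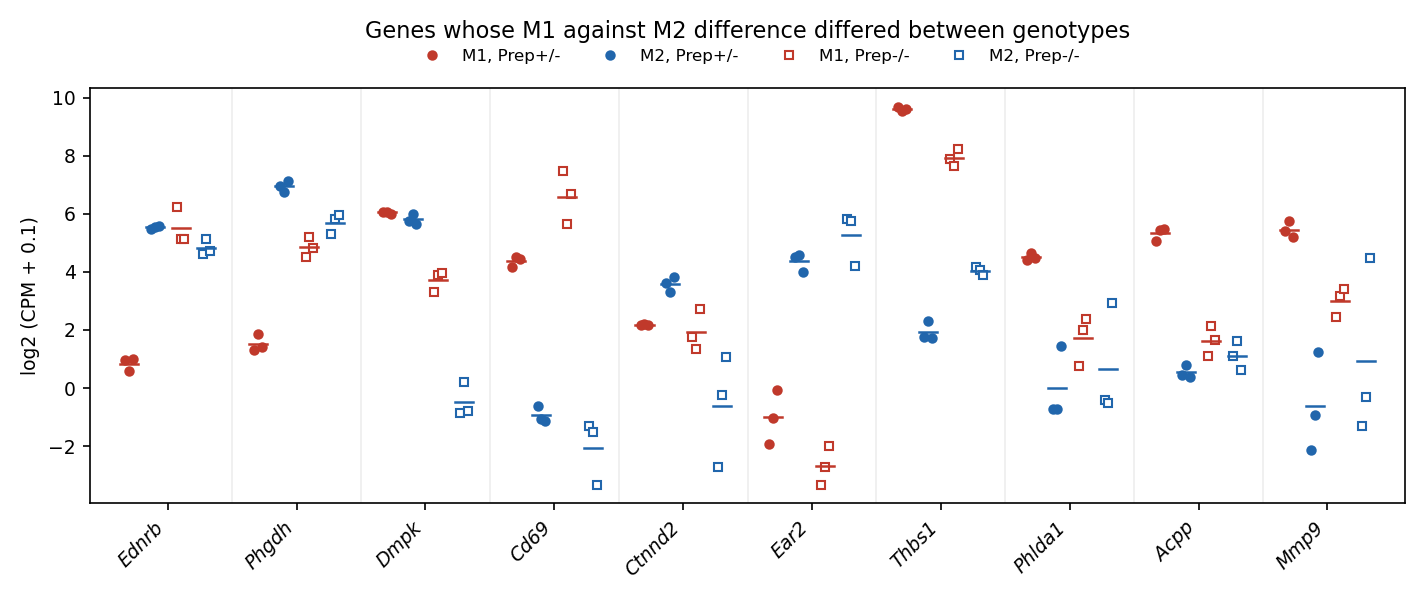
Log2 of CPM plus 0.1 (vertical axis) of 10 genes whose M1 to M2 difference differed between genotypes, in the 12 stimulated libraries. Filled circles are Prep+/- and open squares Prep-/- libraries, red is M1 and blue is M2, and bars are means of 3. Ednrb and Phgdh are wide apart between the states in Prep+/- cells, Dmpk is wide apart in Prep-/- cells, and 1 Prep-/- M2 library lies above its partners for Mmp9 and Phlda1.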

How the data were processed

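RNA of BMDMs was sequenced from stranded mRNA libraries as read pairs of 150 bases. According to the labels and the study's methods, the authors trimmed reads with Trimmomatic 0.36, aligned them to GRCm39 with HISAT2 2.2.1.0 and deposited 1 table of raw counts per gene symbol for 18 libraries; the annotation release and the use of strand in counting are not given in the sources used here, so antisense overlaps and near-identical copies can shift single genes. From these deposited counts, genes were filtered with filterByExpr over 6 groups and scaled by TMM. The quasi-likelihood test of edgeR 4.0.16 took in the 18 libraries together, each group having its own coefficient, with Benjamini-Hochberg adjustment over 12021 genes. A gene was called at an adjusted p below 0.05 and a change above 1.5-fold. Fold changes shown as at least a value were set against a floor of 3 counts per library. DESeq2 1.42.0, other scalings and filters, glmTreat and left-out libraries were alternatives. The procedure was tested on simulated data. Depth was 19549993 to 21739969 counts, and p-values measure only the spread between these libraries.

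Members and gene lists were chosen with earlier results of these data known. The genes named were the study's markers and target, the 15 largest differences in each direction averaging 5 CPM or more and not overlapping, up to 2 of the highest and 2 of the lowest called members of each list with at least 1 CPM, 8 paralog pairs, and 5 genes per side of the genotype interaction with at least 5 CPM. Other genes were named after their values were seen. Positions and promoters came from GRCm39 with GENCODE M39, which gave 1 position for 186 of 188 named genes, and near-identical transcripts from blastn 2.17.0+ (at least 90% identity over 200 bases).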

Additional observations from a re-analysis of the deposited data

Results flagged for a closer look

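In 10 genes named by the size of the difference, the M1 to M2 contrast differed between genotypes by an interaction test (edgeR, n = 3 in each of the 4 groups). As log2 differences of Prep+/- minus Prep-/-, these were Ednrb (-5.51), Phgdh (-4.61), Dmpk (-4.08), Cd69 (-3.61), Ctnnd2 (-3.54), Ear2 (3.69), Thbs1 (3.77), Phlda1 (3.98), Acpp (4.33) and Mmp9 (5.46). Ednrb, Phgdh, Dmpk, Ctnnd2, Thbs1 and Acpp kept their call when any 1 of the 12 libraries was left out. Cd69 lost it without Prep+/- M2 replicate 1 (edgeR adjusted p = 0.0715), Mmp9 without 3 of the M2 libraries in turn, and Phlda1 and Ear2 without several. Ear2 shares 96.4% of its aligned transcript bases with Ear1. The cause of these differences was not tested.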

How the results depend on the processing

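The count of genes higher in M1 stayed within 1.5 times of 2001 under every alternative run, from 1364 with glmTreat to 2156 with the 6 compared libraries alone. Genes higher in M2 fell from 2477 to 1573, and genes with an interaction call from 1435 to 296, when glmTreat tested against 1.5-fold. Without 1 library at a time the counts were 1895 to 1972, 2287 to 2449 and 975 to 1751. DESeq2 called 2121 and 2350. Under the other scalings, 22 list medians moved by at least the spread between replicate libraries and 73 moved by less. With upper quartile scaling the median of the antioxidant list turned from 0.05 to -0.02. The replicate numbers are shared by the groups, and whether equal numbers share an animal or a culture was not tested. In Prep+/- cells, same-numbered M1 and M2 libraries had deviations correlated at -0.196, -0.206 and -0.0217, and other pairs at -0.0413 to 0.232. In Prep-/- cells, same-numbered libraries were correlated at 0.183, 0.054 and 0.138, and other pairs at -0.16 to 0.0699. With the numbers as a replicate block the counts were 2122, 2264 and 1691. Of named genes, Ccl22, Ctnnd2, Polr1a, Gar1 and Atp5g2 lost their call without some single library. With glmTreat those 5 and, among others, Ikbkg, Pfkp, Impdh1 and Utp4 were not called in the M1 to M2 contrast, nor Cd69, Mmp9, Phlda1 and Ear2 in the difference between genotypes. Depth limits genes near the floor of 3 counts, and such differences are bounds only.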
